A study of Rattus norvegicus with 11 samples.

Results

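Fibrosis and extracellular matrix genes were followed in rat cardiac RNA: Col1a1, Col1a2 and Col3a1 (fibrillar collagens), Postn (periostin) and Timp1 (an inhibitor of matrix metalloproteinases). They were chosen as a list of 6 Ensembl IDs, each of which had to match the length expected of its gene. The gene model length, read from the ratio of count to FPKM, was 5825 bases for Col1a1 (ENSRNOG00000003897), 4622 for Col1a2 (ENSRNOG00000011292), 4765 for Col3a1 (ENSRNOG00000003357), 4134 for Postn (ENSRNOG00000012660), for which no range was set, and 740 for Timp1 (ENSRNOG00000010208). The sixth ID, ENSRNOG00000014288, listed as Fn1 (fibronectin), had 9526 bases. This was above the range of 7 to 9 kb set for it, so the ID was dropped from every count below. The set therefore held 5 of the 32883 gene IDs in the table, and all 5 were among the 14979 genes with enough counts to be tested.

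The samples were 11 RNA sequencing libraries of cardiac tissue from Sprague Dawley rats, called here by the number in their labels. The control group had libraries 115 and 95. The isoproterenol group (79, 98 and 119) received isoproterenol, a beta-adrenergic agonist that damages the heart, over 10 days at a daily 5 mg/kg. The canagliflozin group (78, 133 and 143) received the same isoproterenol and canagliflozin, an inhibitor of the renal glucose transporter SGLT2, over 4 weeks at a daily 3 mg/kg. In the exercise group (103, 113 and 57) the same isoproterenol was combined with 4 weeks of training, 60 min daily. The series title joins canagliflozin to exercise, whereas the labels of these 3 libraries name exercise only, so whether those rats also had canagliflozin cannot be told from the labels. The labels do not give age, sex, the part of the heart, a sham treatment of the controls or whether each library is a separate animal, so p-values reflect only how far these libraries differ from each other.

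Fibrillar collagens are the bulk of the scar and of the interstitial matrix of the heart. Collagen I is built from the Col1a1 and Col1a2 chains, collagen III from Col3a1 alone, and both are made mainly by fibroblasts. Periostin is a matricellular protein that activated fibroblasts secrete and that takes part in collagen cross-linking. Timp1 blocks the metalloproteinases that degrade matrix, and many cell types induce it after injury. In whole tissue, more fibroblasts and more RNA per fibroblast cannot be told apart.

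Total counts ran from 14742164 to 25034831 per library. Control library 95 stood apart. Genes with any count numbered 14692 in it and 16916 to 17703 elsewhere, and its TMM factor (the correction of library size for composition) was 0.568, against 0.910 to 1.23. It also held more RNA of short genes and less of long ones. Among genes with models from 3852 bases up, which hold the 3 collagens and Postn, its median deviation from the mean of all libraries was -0.37 on the log2 scale, and in canagliflozin library 143 it was 0.38, against -0.10 to 0.18 in the other 9. The part of these deviations in the results was tested only by removing the length trend, and results that rest on library 95 are given with and without it. Cardiac and other cell type markers were not checked, since the table used for symbols paired 0 of the Ensembl IDs.

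RefSeq promoter windows were at hand for 3 of the 5 genes. A stretch of each is shown, which holds most but not all of the motif matches named below. Positions count back from the RefSeq transcript start on build GRCr8, and capitals mark the matches.
Col1a2, -241 to -132, chr4:33518316-33518425, plus strand: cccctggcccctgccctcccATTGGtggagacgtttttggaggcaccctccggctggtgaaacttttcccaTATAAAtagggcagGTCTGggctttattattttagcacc
Postn, -64 to -19, chr2:140677997-140678042, plus strand: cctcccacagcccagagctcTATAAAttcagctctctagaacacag
Timp1, -162 to -117, chrX:3771239-3771284, minus strand: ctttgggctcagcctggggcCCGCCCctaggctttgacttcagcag
The motifs were searched on both strands of the 250 bases before the start. TATAAA, the core of a TATA box, was in the windows of Col1a2 (-170) and Postn (-44) and in 12.9% of all 33469 windows. CCAAT, the box read by the NF-Y factor, was in that of Col1a2 on the opposite strand (ATTGG at -221) and in 34% of windows. GGGCGG, the core of an Sp1 site, was in that of Timp1 on the opposite strand (CCGCCC at -142) and in 30.5%. CAGAC, the core of a Smad site, was in those of Col1a2 (-156 and -23, opposite strand) and Postn (-166) and in 42.9%. The matches at -23 in Col1a2 and at -166 in Postn lie outside the stretches shown. TGANTCA, an AP-1 site with N for any base, was in none of the 3 windows and in 6.34% of all. These matches describe letters in the windows and show no binding.

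The collagens spanned a wide range between libraries, and within each group the highest library was 2.47 to 6.66 times the lowest. Levels are given as CPM, the count per 1000000 counts of the library after TMM scaling. Col1a1 was at 87.5 and 13.1 CPM in control libraries 115 and 95, and at 106.5, 66.9 and 229 CPM in isoproterenol libraries 79, 98 and 119. It was at 160.0, 433 and 782 CPM in canagliflozin libraries 78, 133 and 143, and at 214, 90.7 and 408 CPM in exercise libraries 103, 113 and 57. Control library 95 was lowest and canagliflozin library 143 highest, a 59.6-fold span, and the groups overlapped in every comparison. Over the 9 isoproterenol-treated libraries alone the span was 11.7-fold.

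Col1a2, the partner chain, was at 227 and 66.6 CPM in control (115 and 95), at 222, 121 and 377 CPM with isoproterenol (79, 98 and 119), at 348, 774 and 1009 CPM with canagliflozin (78, 133 and 143) and at 396, 225 and 554 CPM with exercise (103, 113 and 57). The lowest canagliflozin library, at 348 CPM, lay just under the highest isoproterenol library, at 377 CPM. Col3a1, the chain of collagen III, was at 597 and 132 CPM in control, at 725, 255 and 1327 CPM with isoproterenol, at 849, 2163 and 3047 CPM with canagliflozin and at 1266, 591 and 2103 CPM with exercise, in the same order of libraries. Library 95 was again lowest and library 143 highest, and isoproterenol library 98 was the lowest of the treated libraries for all 3 collagens.

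Postn and Timp1 ordered the libraries differently. Postn was at 16.6 and 41.7 CPM in control (115 and 95), at 13.1, 109 and 56.4 CPM with isoproterenol (79, 98 and 119), at 23.1, 321 and 179.7 CPM with canagliflozin (78, 133 and 143) and at 99.9, 18.2 and 159.6 CPM with exercise (103, 113 and 57). Timp1 was at 27.7 and 91.2 CPM in control, at 24.9, 115 and 33.5 CPM with isoproterenol, at 31.1, 85.8 and 102 CPM with canagliflozin and at 44.4, 18.8 and 142 CPM with exercise, in the same order of libraries. Libraries 95 and 98, the lowest in collagen, were among the 5 highest in Timp1. Within each treated group the highest library was 8.28 to 13.9 times the lowest in Postn and 3.29 to 7.55 times in Timp1, so the groups overlapped widely in both genes.

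**Figure D1:**
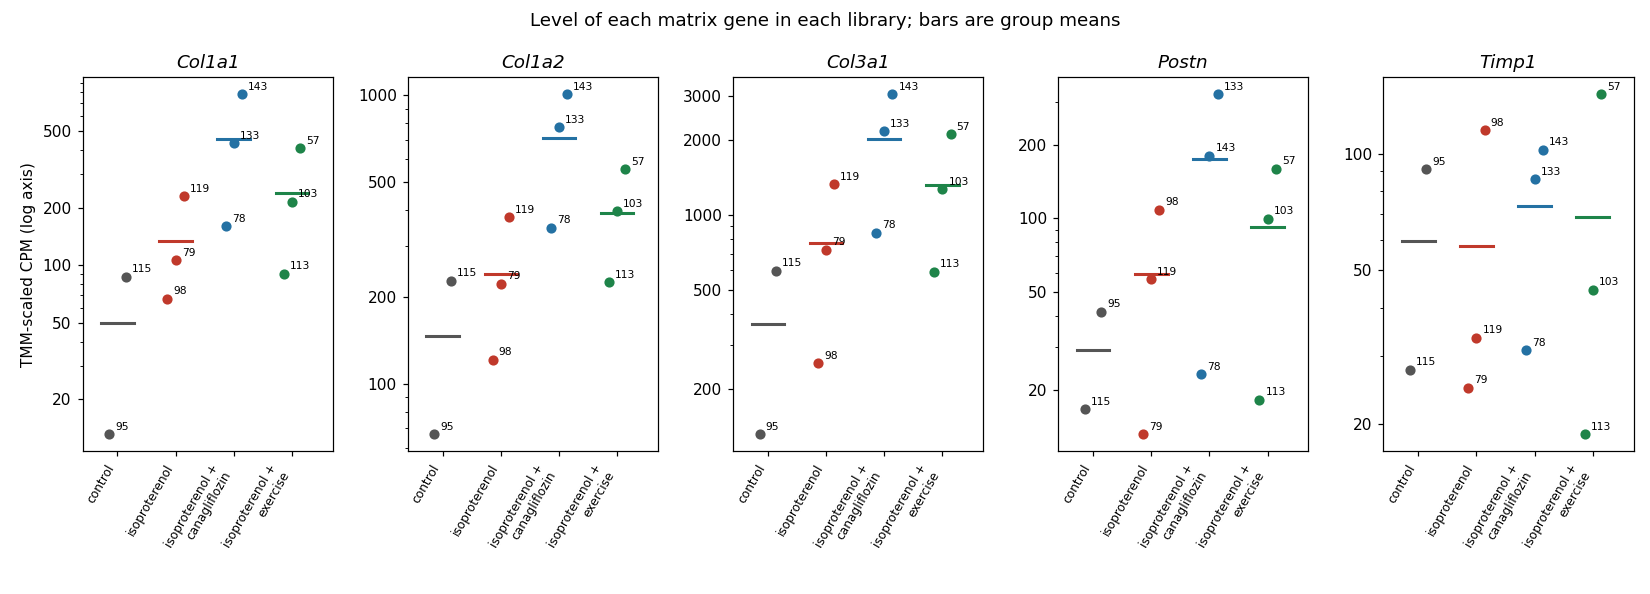
TMM-scaled CPM (log axis) of the 5 genes in each of the 11 libraries, by group; each point is a library with its number and each bar a group mean. The collagens are lowest in control library 95 (13.1 CPM for Col1a1) and highest in canagliflozin library 143 (782 CPM), and every group overlaps another for each gene.

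Compared per kilobase of gene model, Col3a1 was the most abundant of the 5 in 9 of 11 libraries, and Timp1 was in the other 2, libraries 95 and 98. Postn was the least abundant in 8 libraries and Col1a1 in 3. Col3a1 averaged 161 ± 113 CPM per kb (SD, n = 3) with isoproterenol, 424 ± 232 with canagliflozin, 277 ± 159 with exercise and 76.5 ± 69.0 (n = 2) in control. The means of all 3 collagens and of Postn followed the order canagliflozin, exercise, isoproterenol, control. Those of Timp1 were nearly level, at 98.8 ± 50.5 CPM per kb with canagliflozin, 92.6 ± 88.05 with exercise, 78.1 ± 67.2 with isoproterenol and 80.3 ± 60.7 in control. Neighbours in these orders differed by less than the larger of their SDs.

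Within groups these genes varied more than most. The SD of log2 CPM within groups was 1.22 for Col1a1, 0.85 for Col1a2, 1.12 for Col3a1, 1.65 for Postn and 1.21 for Timp1, against a median of 0.55 over all tested genes. Postn was at the 96.3rd percentile of tested genes and Col1a2, the steadiest, at the 73.0th. Without control library 95 the SDs were 1.05, 0.76, 1.03, 1.74 and 1.21 in the same order of genes, and the median was 0.45. Group means accounted for 59.8%, 61.1% and 52.4% of the variance of Col1a1, Col1a2 and Col3a1, for 23.3% in Postn and 4.05% in Timp1, with a median of 31.5% over all tested genes. Without control library 95 these shares were 46.0%, 54.7%, 39.0%, 26.1% and 12.1%, and the median was 27.2%.

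The 3 collagens varied together from library to library. Across the 11 libraries, Pearson's r of log2 CPM was 0.981 for Col1a1 with Col1a2, 0.979 for Col1a1 with Col3a1 and 0.988 for Col1a2 with Col3a1. Each had a two-sided permutation p of 1e-05, the smallest that 100000 resamples can give, and an adjusted p of 3.33e-05 over the 10 pairs of genes. Spearman's rho was 0.955 (permutation p = 4.00e-05), 0.991 (p = 1e-05) and 0.964 (p = 2.00e-05), with adjusted p from 1.00e-04 to 0.000133. Without the 2 libraries farthest from the median, 95 and 143, r was 0.965, 0.963 and 0.974 over 9 libraries. With group means subtracted r ran from 0.967 to 0.994, and with the length trend of each library removed from 0.971 to 0.985. The labels name no batch within which to repeat this.

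Postn and Timp1 also varied together. Their r was 0.819 (permutation p = 0.00479, adjusted p = 0.0120) and rho 0.809 (permutation p = 0.00379, adjusted p = 0.00947), and r was 0.823 without libraries 79 and 133. With group means subtracted r was 0.869, and with the length trend removed 0.900. Postn with a collagen gave r from 0.497 to 0.565 (permutation p from 0.0663 to 0.122, adjusted p from 0.133 to 0.174), and rho from 0.627 to 0.664 (adjusted permutation p from 0.0616 to 0.0645). Without libraries 95 and 143, r was 0.499 to 0.688, with group means subtracted 0.251 to 0.359, and with the length trend removed 0.426 to 0.494. Without control library 95, r of Col1a1 with Postn was 0.720, with an adjusted permutation p of 0.0450. For Col1a2 with Postn, r was 0.682 without isoproterenol library 98 (adjusted permutation p = 0.0497). Timp1 with a collagen gave r from 0.103 to 0.186, with adjusted permutation p from 0.744 to 0.762, and rho from 0.264 to 0.291, with an adjusted permutation p of 0.435. Without libraries 95 and 143 r was 0.241 to 0.463, and without library 95 alone 0.374 to 0.558. That the correlations of different pairs differ was not tested.

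**Figure D2:**
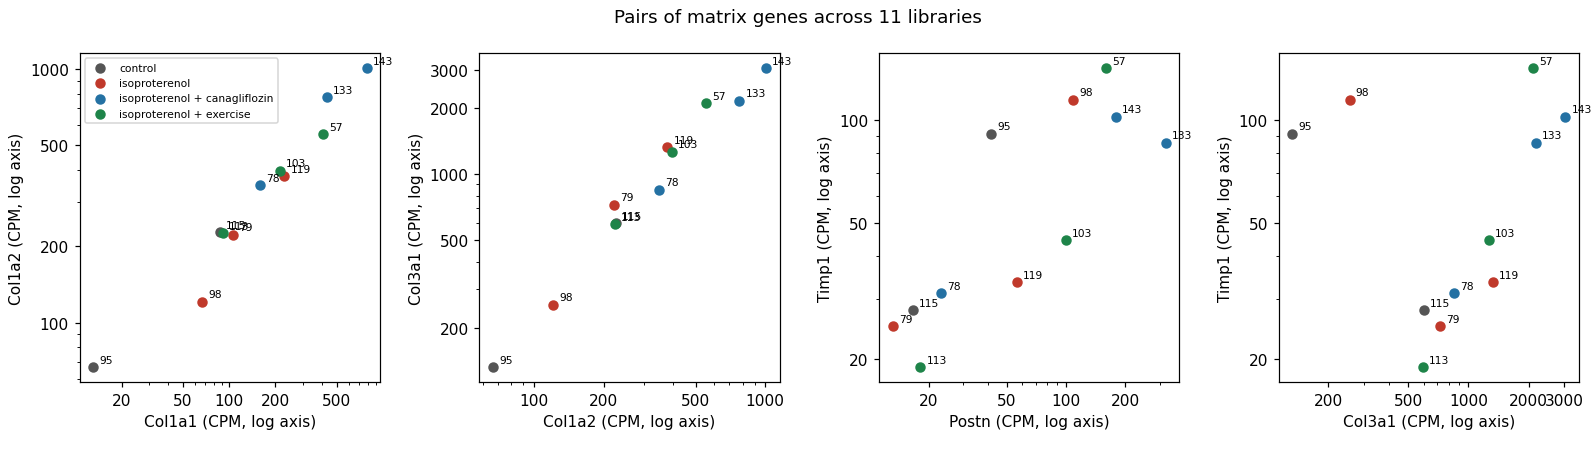
CPM of 4 pairs of genes (both axes logarithmic) in the 11 libraries, coloured by group and marked with the library number. Col1a1 with Col1a2 and Col1a2 with Col3a1 lie near a line (r = 0.981 and 0.988), Postn with Timp1 is looser (r = 0.819), and in Col3a1 against Timp1 libraries 95 and 98 lie at the upper left (r = 0.103).

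Set against every other tested gene, the collagens were close to the nearest neighbours of each other. Ranked by Pearson's r over the 11 libraries among 14978 genes, Col1a2 was first for Col3a1 and Col3a1 first for Col1a2. Col1a1 was second for Col3a1 and ranked 3 for Col1a2. Col1a2 and Col3a1 ranked 3 and 4 for Col1a1, behind ENSRNOG00000002746 (r = 0.983) and ENSRNOG00000052925 (r = 0.982), for which no symbol was at hand. Without control library 95 the ranks among the collagens were 1 to 6. Postn ranked 4020 for Col1a1, 3986 for Col1a2 and 4547 for Col3a1, and 683, 1292 and 1510 without library 95. Timp1 ranked 106 for Postn and Postn ranked 112 for Timp1, while Timp1 ranked 7178 for Col1a1, 7404 for Col1a2 and 7701 for Col3a1. Without library 95 those last 3 ranks were 1730, 3167 and 3419. These ranks describe the libraries and carry no test.

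Ratios within a library do not depend on how libraries are scaled, but they do carry a library's tilt toward short or long genes. Per kilobase, Col1a1 stood to Col1a2 at 0.306 and 0.156 in control libraries 115 and 95 and at 0.320 to 0.615 in the 9 isoproterenol-treated libraries. Col3a1 stood to Col1a1 at 8.35 and 12.3 in control and at 4.66 to 8.31 in treated libraries. In both ratios, which share Col1a1, control library 115 lay next to the nearest treated library and library 95 apart from it, and a difference between the groups was not tested. Timp1 per Col1a1 ran from 1.03 to 2.75 in 9 libraries and was 13.5 in isoproterenol library 98 and 54.7 in control library 95. Postn per Col3a1 was likewise highest in these libraries, at 0.491 and 0.364, against 0.0209 to 0.171 in the others. Timp1 has 740 bases and Col1a1 5825. The median log2 deviation of library 95 was 0.43 among short genes and -0.37 among long ones, and that of library 98 was 0.05 in both. The part of this tilt in the ratios was not tested.

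Isoproterenol was compared with control to ask whether the injury that serves as the heart failure model changes matrix genes. None of the 5 genes passed the threshold, a Benjamini-Hochberg adjusted p under 0.05 in edgeR's quasi-likelihood test, and 0% of tested genes did with edgeR, where 1.42% were higher and 3.79% lower at an unadjusted p under 0.05. DESeq2 and limma-voom called 0 genes as well, and 0 of the 5 had an unadjusted p under 0.05 with any of the 3 tools. For 0 of the 5 were the groups free of overlap, beside 7.96% of tested genes that were higher and 5.47% that were lower in every isoproterenol library. The collagens varied together, as did Postn and Timp1, so here and in the comparisons below the 5 genes are not 5 separate observations. Log2 fold changes were above 0 for 4 of the 5 and for 55% of all tested genes. They were 1.41 (SE 0.959) for Col1a1, 0.71 (SE 0.692) for Col1a2, 1.08 (SE 0.891) for Col3a1, 1.03 (SE 1.16) for Postn and -0.04 (SE 0.920) for Timp1. The edgeR adjusted p ran from 0.840 to 0.997, and the 95% interval for Col1a1 ran from 0.608-fold to 11.6-fold. The median of the 5 was 1.03, beside 0.07 over all tested genes and 0.19 over genes from 3852 bases up. Over genes up to 1479 bases, which hold Timp1, the median was -0.26. Without control library 95 the log2 fold changes of the collagens were 0.62, 0.09 and 0.37, and that of Timp1 was 1.07. That of Postn was 1.85 without control library 95, 0.53 without control library 115 and 0.26 without isoproterenol library 98. Without control library 115 they were 3.37, 1.87 and 2.56 for the collagens, and edgeR called 2688 genes, none of the 5 among them.

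The 3 isoproterenol-treated groups together, 9 libraries, were also set against the 2 controls, and edgeR again called 0% of tested genes, with 2.62% higher and 8.29% lower at an unadjusted p under 0.05. DESeq2 called 100 genes and limma-voom 0, none of the 5 in either. The log2 fold change was 2.28 (SE 0.929) for Col1a1, with an unadjusted p of 0.0337 and an edgeR adjusted p of 0.421, and 8 of 9 treated libraries lay above both controls. It was 1.47 (SE 0.649) for Col1a2, with an unadjusted p of 0.0469 and an edgeR adjusted p of 0.449, and 6 of 9 libraries lay above both controls. The fitted ratio of Col3a1 was 3.48-fold (95% interval 0.948-fold to 12.8-fold), the log2 fold change of Postn was 1.76 (SE 1.10) and that of Timp1 0.16 (SE 0.798), with 7, 6 and 3 of 9 libraries above both controls. The groups overlapped for all 5 genes, while 2.58% of tested genes were higher and 1.44% lower without overlap. At an unadjusted p under 0.05, 2 of the 5 genes were higher with edgeR. With DESeq2 3 of 5 were, beside 4.56% of all genes, and with limma-voom 3 of 5, beside 3.82%. Without control library 95, which leaves 1 control, the edgeR log2 fold change was 1.49 for Col1a1, 0.84 for Col1a2, 1.09 for Col3a1 and 2.57 for Postn. DESeq2 gave 1.47, 0.82, 1.07 and 2.55 in that setting. The collagen values were thus smaller than with all libraries and that of Postn larger. With all 11 libraries, all 5 log2 fold changes were above 0 with edgeR, as were 54.6% of those of all tested genes. The median of the 5 was 1.76, against 0.07 over all tested genes and 0.21 over those from 3852 bases up. Over genes up to 1479 bases, which hold Timp1, the median was -0.28. These values turn on the controls. With library 95 as the only control, taken to vary like the other groups, the log2 fold change of Col1a1 was 4.23. That value was at the 86.6th percentile of tested genes. With library 115 as the only control, the log2 fold change of Col1a1 was 1.49, at the 95.6th percentile. That of Timp1 was 1.27, at the 94.8th percentile.

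Canagliflozin was compared with isoproterenol alone to ask what the drug changes. All 5 genes had a higher mean with canagliflozin, where 48.9% of all tested genes had a log2 fold change above 0, but none passed the edgeR threshold and 0% of tested genes did, with 2.42% higher and 0.888% lower at an unadjusted p under 0.05. The groups overlapped for all 5, while 5.9% of tested genes were higher and 3.58% lower without overlap. For Col1a2 the mean level was 710.3 ± 335 CPM after canagliflozin and 240.1 ± 129 CPM after isoproterenol (SD, n = 3 each), a log2 fold change of 1.56 (SE 0.620, 95% interval 1.14-fold to 7.69-fold). Its unadjusted p was 0.0298 and its edgeR adjusted p 0.999, and it was the 1 gene of 5 with an unadjusted p under 0.05. Col1a1 averaged 459 ± 312 against 134 ± 84.5 CPM, a log2 fold change of 1.77 (SE 0.840), and Col3a1 2019.6 ± 1106 against 769 ± 537 CPM, a log2 fold change of 1.39 (SE 0.784).

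In all 3 collagens, canagliflozin libraries 133 and 143 lay above every isoproterenol library and library 78 did not. Without any 1 of libraries 79, 98, 133 or 143, 0 of the 5 genes had an unadjusted p under 0.05 with edgeR. In that order, 161 of 14880, 377 of 14915, 170 of 14838 and 187 of 14876 tested genes were higher at that level. Col1a1 and Col1a2 both reached it without library 78 or 119, beside 573 of 14874 and 358 of 14855 genes that were higher. Both also did with only the groups compared, beside 460 of 14211. Col1a2 alone did without any 1 exercise library, beside 276 to 334 genes that were higher. Without control library 95 or 115, the log2 fold changes of Col1a1 and Col1a2 stayed at 1.77 and 1.56. Postn averaged 175 ± 149 against 59.4 ± 47.8 CPM, a log2 fold change of 1.56 (SE 1.02), and Timp1 73.1 ± 37.3 against 57.8 ± 49.7 CPM, a log2 fold change of 0.34 (SE 0.823). Postn was at 0.77 without canagliflozin library 133 and at 2.33 without isoproterenol library 98, and Timp1 at 1.32 without library 98. DESeq2 called 2 genes and limma-voom 0. DESeq2 gave 2 of the 5 genes an unadjusted p under 0.05, with 3.79% of all genes higher at that level, and limma-voom 1, with 2.66%, and neither called one of them. With each library weighted by its quality in limma-voom, all 5 were higher at an unadjusted p under 0.05, as were 12.9% of all tested genes, and none was among the 2 genes called. The median log2 fold change of the 5 was 1.56, beside -0.01 over all tested genes and 0.14 over those from 3852 bases up. Over genes up to 1479 bases, which hold Timp1, the median was -0.16. Library 143 had the largest shift toward long genes. Without it the log2 fold changes of Col1a1, Col1a2 and Col3a1 were 1.15, 1.22 and 0.97, and with the length trend as an offset the value of Col1a2 was 1.40.

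The exercise group was set against isoproterenol alone in the same way. None of the 5 genes was called by edgeR (0% of tested genes were, with 0.688% higher and 0.794% lower at an unadjusted p under 0.05), and DESeq2 and limma-voom also called 0 genes. With these 3 tools 0 of the 5 had an unadjusted p under 0.05. The groups overlapped for all 5, while 4.14% of tested genes were higher and 4.47% lower without overlap. All 5 log2 fold changes were above 0, as were 48.2% of those of all tested genes. Log2 fold changes were 0.82 (SE 0.821) for Col1a1, 0.71 (SE 0.609) for Col1a2, 0.78 (SE 0.774) for Col3a1, 0.64 (SE 1.002) for Postn and 0.25 (SE 0.823) for Timp1. The median of the 5 was 0.71, beside -0.01 over all tested genes and -0.10 over those from 3852 bases up. Over genes up to 1479 bases, which hold Timp1, the median was 0.06. Exercise library 57 carried much of these values: without it Col1a1 was at 0.18, Postn at -0.01 and Timp1 at -0.87. Without isoproterenol library 119 Col1a1 was at 1.46, and without isoproterenol library 98 Postn was at 1.41 and Timp1 at 1.23.

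A direct contrast of exercise with canagliflozin asked whether the additions to isoproterenol differed from each other. All 5 log2 fold changes were below 0, while 46.3% of those of all tested genes were above it. They were -0.95 (SE 0.823) for Col1a1, -0.86 (SE 0.611) for Col1a2, -0.61 (SE 0.772) for Col3a1, -0.92 (SE 1.01) for Postn and -0.09 (SE 0.822) for Timp1. edgeR called none of them and 0% of tested genes, with 0.841% higher and 1.58% lower at an unadjusted p under 0.05, and DESeq2 and limma-voom called 0 genes. An unadjusted p under 0.05 was reached by 0 of the 5 with these tools and by 3 (Col1a1, Col1a2 and Timp1) that were lower with libraries weighted by quality in limma-voom. In that setting 13.2% of all tested genes were lower at that level, and none of the 5 was called. The groups overlapped for all 5, while 6.55% of tested genes were higher and 7.94% lower without overlap. The 95% interval for Col1a2 ran from 0.215-fold to 1.41-fold. The median of the 5 was -0.86, beside -0.04 over all tested genes and -0.28 over those from 3852 bases up. Over genes up to 1479 bases, which hold Timp1, the median was 0.20. Without canagliflozin library 143 Col1a1 was at -0.32 and Col3a1 at -0.19, and without exercise library 57 they were at -1.59 and -1.12. With the length trend as an offset they were at -0.59 and -0.34. Postn was at -0.13 without canagliflozin library 133, at -0.43 without exercise library 113 and at -1.57 without exercise library 57.

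**Figure D3:**
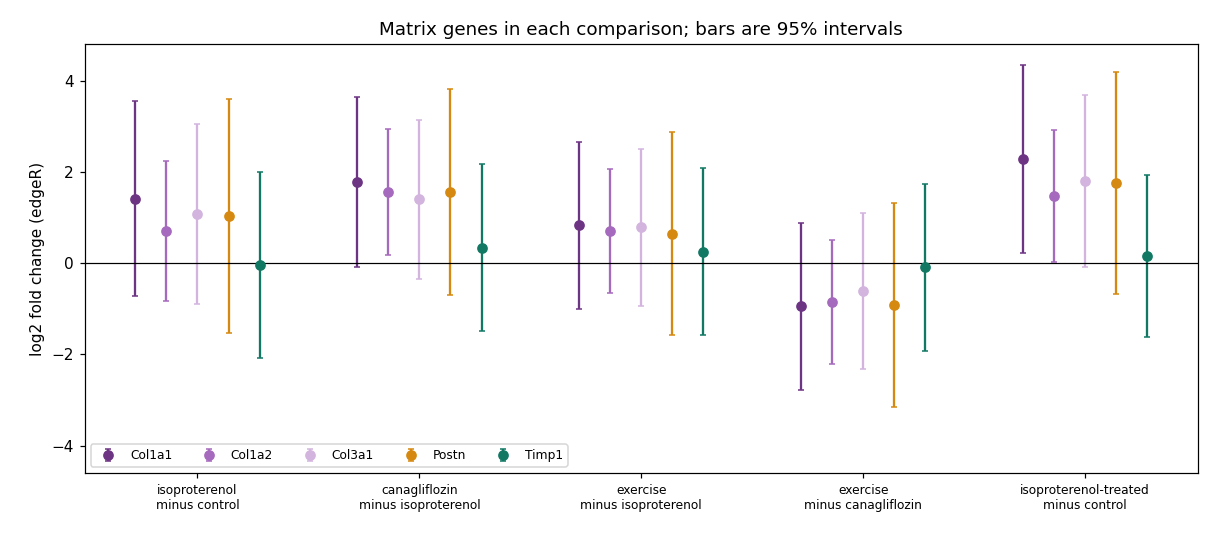
Log2 fold change of each gene in 5 comparisons, with 95% intervals from edgeR. Intervals exclude 0 for Col1a2 in canagliflozin against isoproterenol and for Col1a1 and Col1a2 in treated against control, before any adjustment, and with all 11 libraries no value passed an adjusted p under 0.05.

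**Figure D4:**
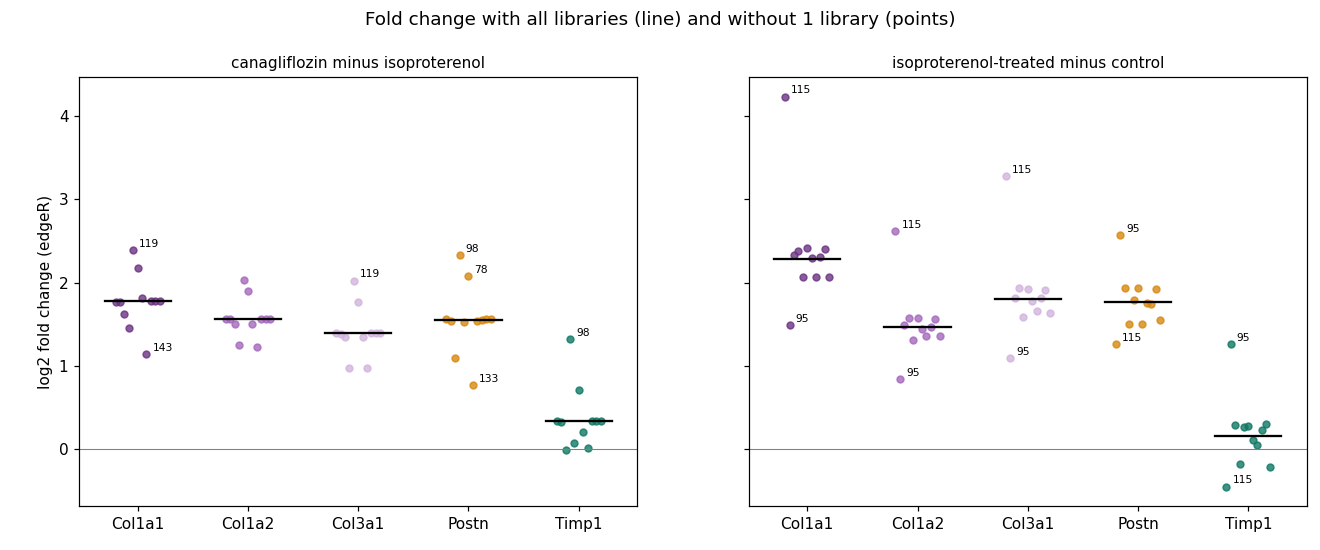
Log2 fold change with all libraries (line) and with 1 library left out (points, with the library's number where the value moved by over 0.5), for canagliflozin against isoproterenol and for all treated libraries against control. Leaving out control library 115 or 95 moved Col1a1 to 4.23 or 1.49, while in the canagliflozin comparison it stayed between 1.15 and 2.39.

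The dropped ID ENSRNOG00000014288 is given by its values only. It was at 29.0 and 82.1 CPM in control (115 and 95), at 47.8, 65.9 and 75.7 CPM with isoproterenol (79, 98 and 119), at 53.3, 423 and 405 CPM with canagliflozin (78, 133 and 143) and at 109, 50.5 and 278 CPM with exercise (103, 113 and 57). For canagliflozin against isoproterenol its log2 fold change was 2.22 (SE 0.806), with an unadjusted p of 0.0200 and an edgeR adjusted p of 0.999. Its r with Postn was 0.897, which ranked 27 among 14978 genes, and with the collagens 0.657 to 0.695.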

How the data were processed

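RNA of 11 libraries was sequenced, and CASAVA 1.8 and TopHat2 2.0.6 are named in the submitters' processing notes. Genome build, annotation, counter and strandedness are not given in the sources that were used, and reads shared between overlapping genes are therefore uncertain. The authors deposited raw counts per gene for each library, per the file headers. The authors also deposited FPKM values in the same table, from which gene model lengths and 1 alternative were computed.

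Counts of genes kept by filterByExpr were scaled by TMM and tested with edgeR 4.0.16 (quasi-likelihood F-test, all 4 groups in 1 fit, no covariates, Benjamini-Hochberg adjustment over 14979 genes, R 4.3.3). The edgeR fit was also run on simulated data, and the outcome is not given here. The simulation held no outlying library and no length trend, so it does not bear on either. Log2 CPM for correlations and spread used a prior count of 2. Correlations were tested with 100000 permutations (scipy 1.17.1) and adjusted over 10 pairs. The Fn1 ID was removed by its length, so fewer pairs were tested than the 6 IDs would give. Alternatives were DESeq2 1.42.0 (without independent filtering), its size factors in edgeR, limma-voom (limma 3.58.1) with and without sample quality weights, no filter, only the groups compared, a length trend as an offset (lowess span 0.3), limma on log2(FPKM + 0.1), and leaving out each library. DESeq2 without control library 95 and the likeness ranks under other settings were added after seeing the data.

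The 5 genes, the lists and the tests were chosen with earlier results of these data known. Every listed gene was described in each comparison, and for likeness the 2 tested genes with the highest r to each, of which at most 2 IDs with no symbol are named. Lists of other matrix genes, transforming growth factor beta genes and cell type markers were not analysed, because the RefSeq table of symbols matched 0 Ensembl IDs.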

Additional observations from a re-analysis of the deposited data

How the results depend on the processing

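The tests rest on 2 controls and 3 libraries in each other group, and 95% intervals of single genes span several-fold, so smaller differences were not detectable. Of the 396 values of the collagens and Postn under the alternatives, 394 kept their direction and their side of the threshold. No value passed the threshold in the main fit, so keeping its side means staying uncalled, and the alternatives reuse the same libraries. Sizes moved more: for isoproterenol against control, leaving out single libraries gave 0.62 to 3.37 for Col1a1 and 0.09 to 1.87 for Col1a2. Postn in exercise against isoproterenol ran from -0.00997 to 1.41 when single libraries were left out (log2 fold change). Timp1, whose values lay near 0, changed sign in all 5 comparisons: leaving out single libraries gave -0.45 to 1.27 for all treated against control, -1.03 to 1.07 for isoproterenol against control, -0.0138 to 1.32 for canagliflozin against isoproterenol, -0.87 to 1.23 for exercise against isoproterenol and -1.21 to 0.35 for exercise against canagliflozin. It was also -0.0903 for all treated against control with quality weights, and for isoproterenol against control 0.38 with the length offset, 0.29 on FPKM and 1.05 with DESeq2 without control library 95. Correlations with Timp1 ran from -0.0147 to 0.416 for Col1a2 and from -0.0533 to 0.374 for Col3a1 when single libraries were left out. Col1a1 with Postn reached r = 0.657 on log2(FPKM + 0.1), with an adjusted permutation p of 0.0396.

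Counts of called genes, 0 in each comparison with edgeR, moved with the tool. For canagliflozin against isoproterenol they were 2 with DESeq2, 2 with quality weights and 6 with DESeq2 without control library 95. For all treated against control they were 100 with DESeq2, 1 with DESeq2 without control library 95 and 0 to 3949 when single libraries were left out. For isoproterenol against control they were 1 with DESeq2 without control library 95 and 0 to 2688 when single libraries were left out. For exercise against canagliflozin they were 3 with quality weights and 4 with DESeq2 without control library 95. None of the 5 genes was among those called, except Col1a1 in all treated against control without control library 115, which leaves 1 control. There its log2 fold change of 4.23 was at the 86.6th percentile of tested genes. The causes were not tested. For all treated against control, a fit with only the groups compared is the reported fit. No paired analysis was possible because the groups share no library number.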
